A study of Homo sapiens with 4 samples.

Results

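The centromere, kinetochore, chromosomal passenger and spindle checkpoint genes were examined as a set of 47 symbols chosen by name and mapped to the gene identifiers of the count files, 47 of 60880 genes counted. Each symbol matched 1 identifier, and all 47 passed the filter on low counts that left 15626 genes for testing. The comparison was between LNCaP95 cells, an androgen-independent derivative of the LNCaP prostate cancer line, with an intact UGT2B17 gene (genotype WT, replicates 1 and 2), and LN95(KO) cells, the same line after CRISPR knockout of UGT2B17 (replicates 3 and 4). Both lines were grown in RPMI1640 with charcoal-stripped serum, were passaged near confluence and received no treatment, so that both groups shared low-androgen conditions. RNA-Seq of polyadenylated RNA gave 2 libraries per group. The number of knockout clones behind LN95(KO) is not given in the sources used here, nor is it stated that the libraries came from separate cultures. The p-values therefore measure only the spread between these libraries, which may be technical, and a difference between the lines cannot be told apart from a difference between clones.

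The kinetochore is the protein assembly that joins a chromosome to spindle microtubules in mitosis. It is built on chromatin that carries the histone variant CENP-A, through an inner layer (the constitutive centromere-associated network, CCAN) and an outer layer of the Knl1, Mis12 and Ndc80 complexes, on which the spindle checkpoint kinases act. Transcripts of many of these proteins accumulate in late S phase, G2 and mitosis and fall in G1, through the DREAM repressor complex and its counterparts B-MYB and FOXM1, whereas a few subunits are made at similar levels in resting and dividing cells. On that textbook basis, 32 members were placed in a cycle-regulated class, 7 (BUB3, CENPT, MAD1L1, MIS12, NSL1, PMF1 and ZW10) in a constitutive class and 8 in neither (CENPC, CENPH, CENPO, CENPP, CENPQ, DSN1, MIS18A and SKA2).

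The libraries held 18813193 and 18726331 reads assigned to genes in LNCaP95 against 17330338 and 17986453 in LN95(KO), and a count of 3, the most that a count of 0 allows, was worth 0.162 to 0.169 CPM, counts scaled to library size. The targeted gene UGT2B17 had 2788 and 2748 counts in LNCaP95 against 21 and 20 in LN95(KO) (log2 fold change -7.04, SE 0.10, quasi-likelihood test of edgeR, Benjamini-Hochberg adjusted p = 1.18e-18). All 10 luminal prostate markers were detected, with a summed level of 3307 and 3297 CPM against 4033 and 3861 CPM, among them KRT8 and KRT18. The 6 leukocyte markers summed to 0.108 to 0.339 CPM, with CD3E and CD68 among those at 0 in every library. The 6 fibroblast markers summed to 31.2 to 38.1 CPM, nearly all of it COL1A1, with DCN at 0. Within that list LUM was called lower (24 and 19 counts against 0 and 0) and PDGFRB higher (22 and 18 against 44 and 44). The 6 basal and neuroendocrine markers summed to 3.39 to 4.31 CPM, with CHGA at 0, but KRT14 was called higher (1 and 2 counts against 17 and 20) and NCAM1 lower (19 and 32 against 0 and 1). The part of these marker differences in the results was not tested. The LN95(KO) libraries differed from the LNCaP95 libraries in the share of entries not aligned (8.05% and 7.71% against 3.85% and 3.96%) and in the share of gene reads on mitochondrial genes (16.3% and 15.6% against 22.3% and 23.0%), and the part of these differences in the results was not tested.

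Kinetochore transcripts were higher in LN95(KO), and the 2 classes separated. A gene was called when its adjusted p was under 0.05 and its fold over 2. Of the 47 members, 38 were called higher, 0 lower, and 9 were not called, where 8.86% of all genes tested were called higher and 9.13% lower. Both LN95(KO) libraries lay above both LNCaP95 libraries for 43 members and below them for 2, beside 39.8% and 39.9% of all genes. The median log2 fold change of the set was 2.40 (5.26-fold) against -0.01 over all genes tested. All 32 cycle-regulated members were called higher, with log2 fold changes from 1.84 (INCENP) to 4.05 (AURKB), a median of 2.99 (7.97-fold), SEs of 0.0694 to 0.219 and a largest adjusted p of 4.72e-08 (edgeR). Of these, 16 were over 8-fold. None of the 7 constitutive members was called (0 of 7), and their log2 fold changes ran from -0.36 to 0.60 with a median of 0.09 (1.07-fold). Among all genes tested, 271 (1.73%) had a change at or above the cycle-regulated median, and 9127 (58.4%) had a change within the constitutive range. The ranges of the 2 classes did not meet. Of the 8 members of neither class, 6 were called higher, with a median of 1.41 and a range from 0.65 to 2.40 (CENPH), which reached into the cycle-regulated range. The classes were compared by description only, since their members were assigned with earlier results of these data known. In bulk RNA, a larger share of cells in G2 and mitosis and more of each transcript per cell cannot be told apart.

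**Figure D1:**
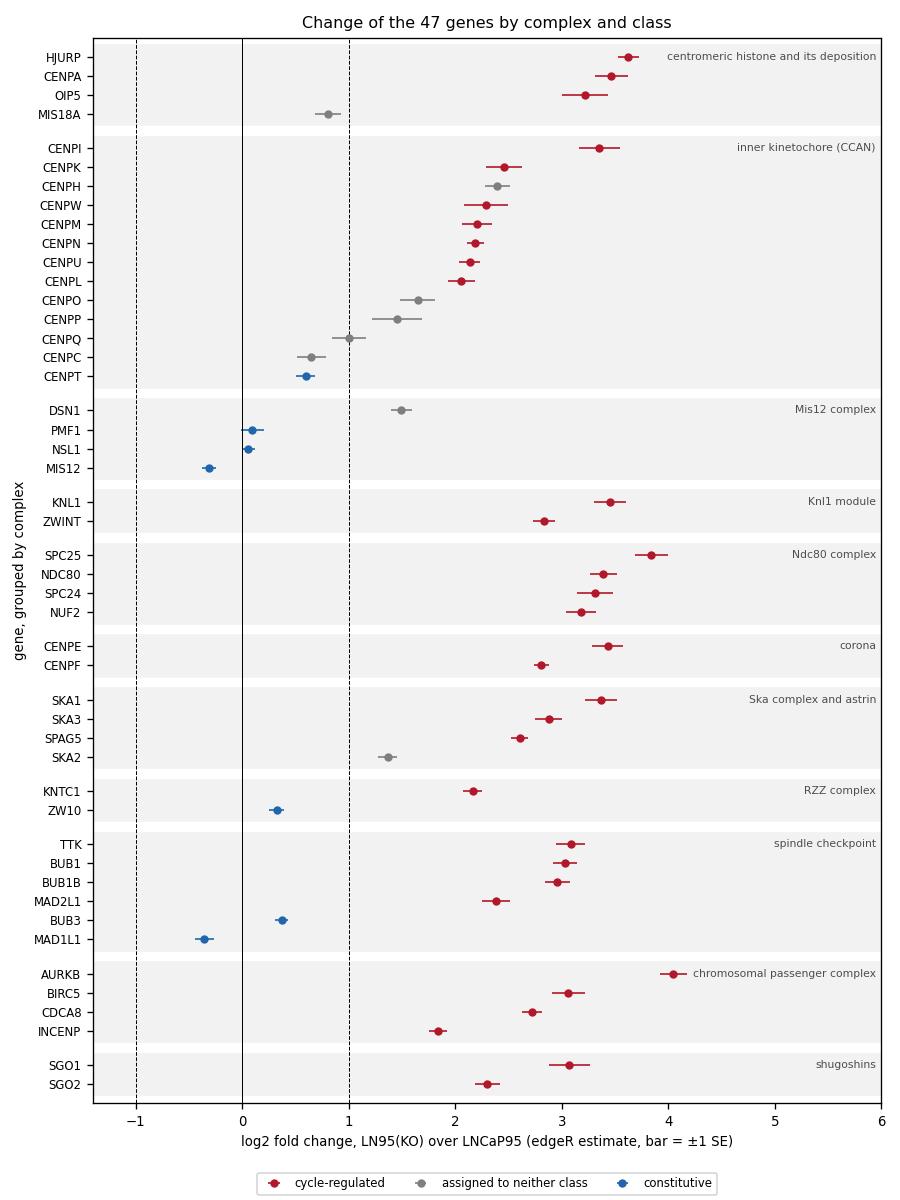
Log2 fold change of each of the 47 genes, LN95(KO) over LNCaP95, as estimated by edgeR from 2 libraries per group, grouped by complex and coloured by class, with bars of 1 SE and dashed lines at a 2-fold change. The 32 cycle-regulated genes all lie right of the upper dashed line, from 1.84 to 4.05, and the 7 constitutive genes lie between the dashed lines, from -0.36 to 0.60.

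The constitutive class held 1 or more subunits of several complexes. BUB3, which docks the checkpoint kinases on KNL1, had 1992 and 1921 counts in LNCaP95 against 2299 and 2644 in LN95(KO), 1.29-fold higher (log2 0.37, SE 0.06, adjusted p = 3.22e-05, edgeR). ZW10, a subunit of the RZZ complex that also acts in membrane traffic between the Golgi apparatus and the endoplasmic reticulum, had 668 and 704 counts against 806 and 874, 1.25-fold higher (log2 0.32, SE 0.07, adjusted p = 6.77e-04, edgeR). CENPT, the CCAN protein that binds the Ndc80 complex directly, had 288 and 289 counts against 425 and 428, 1.51-fold higher (log2 0.60, SE 0.09, adjusted p = 2.08e-05, edgeR). These 3 genes did not overlap between the groups, yet stayed under the 2-fold criterion.

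MIS12, which anchors the outer kinetochore to CENP-C, was lower in LN95(KO), with 974 and 1034 counts in LNCaP95 against 755 and 824 in LN95(KO) (log2 -0.31, SE 0.07, adjusted p = 6.56e-04, edgeR). MAD1L1, which holds MAD2 at the kinetochore, had 456 and 453 counts against 321 and 373 (log2 -0.36, SE 0.09, adjusted p = 0.00255, edgeR). With DESeq2 its adjusted p was 0.0504. In the annotation used here, GENCODE 44, 43.2% of its exon bases lay under exons of another gene. The counts were made on GENCODE 29, and the effect of that overlap on them was not tested. MIS12 and MAD1L1 were the only members with both LN95(KO) libraries below both LNCaP95 libraries. NSL1, a Mis12 complex subunit, had 1169 and 1155 counts against 1105 and 1259 (log2 0.06, SE 0.06, adjusted p = 0.463, edgeR). PMF1, its partner in the same complex, had 304 and 323 counts against 288 and 366 (log2 0.09, SE 0.11, adjusted p = 0.481, edgeR), with 23.3% of its exon bases shared with the PMF1-BGLAP readthrough gene. For NSL1 and PMF1 the groups overlapped, and both estimates turned negative without LN95(KO) replicate 4 (-0.014 and -0.064). An adjusted p under 0.05 at any fold was reached by 45 of the 47 members and by 5 of the 7 constitutive ones, beside 59.8% of all genes tested.

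The classes also differed in level, and that difference narrowed in LN95(KO). Per kilobase of transcript, the cycle-regulated members had a median level of 1.76 CPM per kb in LNCaP95 (range 0.22 for KNL1 to 6.004 for ZWINT) and the constitutive members 13.0 CPM per kb. In LN95(KO) the medians were 13.6 (range 2.41 to 46.7) and 16.3 CPM per kb. The count of cycle-regulated members with a level per kb above the constitutive median was 0 of 32 in LNCaP95 and 12 of 32 in LN95(KO). Summed over the class, the cycle-regulated level was 209.4 and 209.1 CPM in LNCaP95 and 1296 and 1512 CPM in LN95(KO), a ratio of means of 6.71, while the constitutive sum was 317 and 321 CPM against 339 and 371 CPM, a ratio of 1.11.

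**Figure D2:**
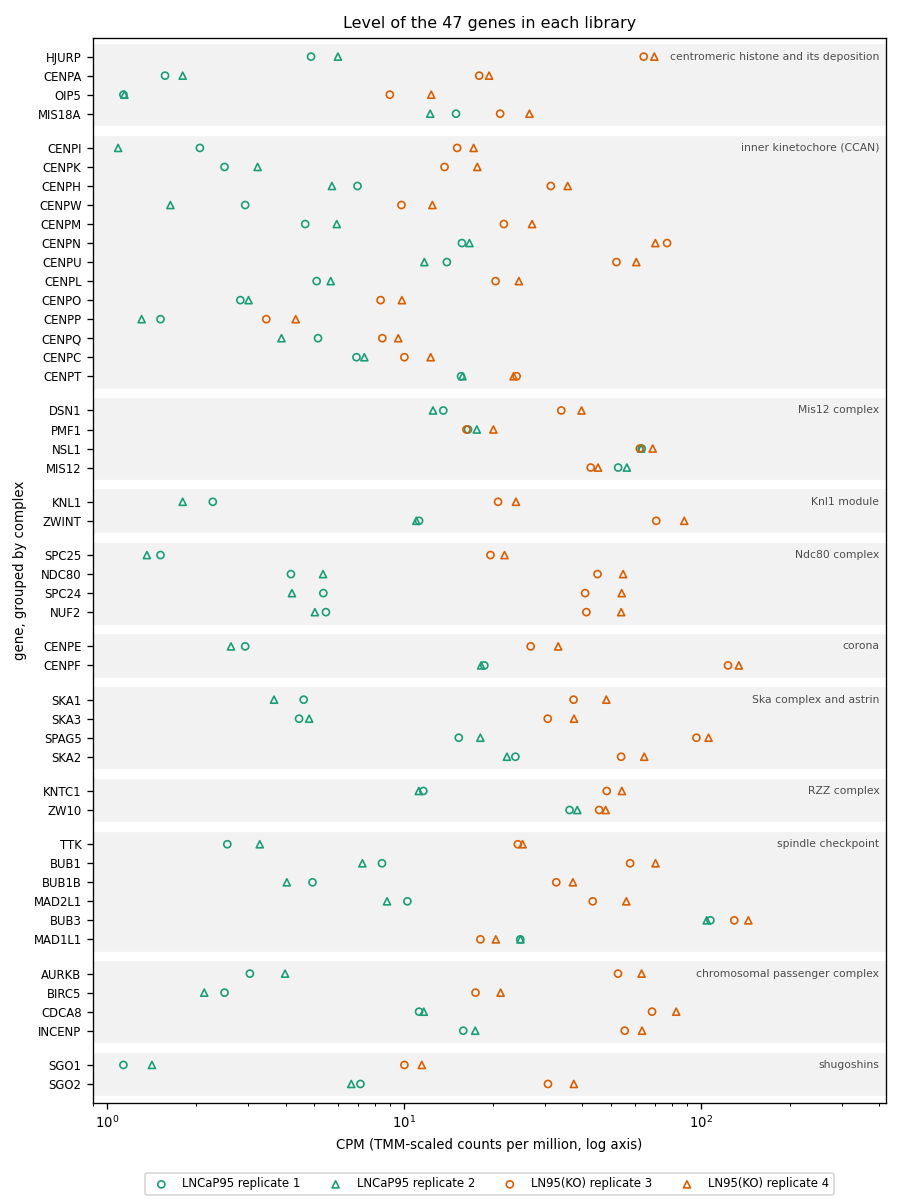
Level of each of the 47 genes in each of the 4 libraries, as TMM-scaled CPM on a log axis, with green symbols for LNCaP95, orange for LN95(KO), and circles and triangles for the 2 replicates of a group. Orange symbols lie right of green ones for 43 genes, left of them for MIS12 and MAD1L1, and among them for NSL1 and PMF1.

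The proportion between partner transcripts differed between the lines. These ratios restate the unequal fold changes of the paired genes and are not separate evidence. A ratio of counts within a library needs no scaling between libraries, and since transcript length is not divided out, only its change between libraries is read. The NDC80 to MIS12 ratio was 0.0791 and 0.0948 in LNCaP95 against 1.05 and 1.21 in LN95(KO), a 13.1-fold difference of means. For BUB1 to BUB3, which form 1 checkpoint unit, the ratio was 0.0783 and 0.0692 against 0.446 and 0.487. For MAD2L1 to MAD1L1 it was 0.417 and 0.355 against 2.39 and 2.75. In these 3 pairs a cycle-regulated gene was set over a constitutive one, and the groups did not overlap in any of them.

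KNTC1 to ZW10, the 2 RZZ members of the set, moved less, from 0.322 and 0.293 to 1.06 and 1.13. Pairs within the cycle-regulated class moved little or unevenly. HJURP to CENPA, a chaperone over its histone, was 3.10 and 3.33 in LNCaP95 against 3.58 and 3.60 in LN95(KO). NUF2 to NDC80, which form the arm that contacts microtubules, was 1.31 and 0.939 against 0.917 and 0.985, so that the groups overlapped. AURKB to INCENP, a kinase over its scaffold, moved most, at 0.191 and 0.229 against 0.949 and 0.997. SPC24 to SPC25 was 3.54 and 3.08 against 2.08 and 2.48, and SPC25 to NDC80 0.364 and 0.255 against 0.436 and 0.399. Like HJURP to CENPA, these pairs moved less but did not overlap between the groups. With 2 libraries against 2, the smallest two-sided p of an exact permutation test of such a ratio is 0.333, so no test of these ratios was made.

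**Figure D3:**
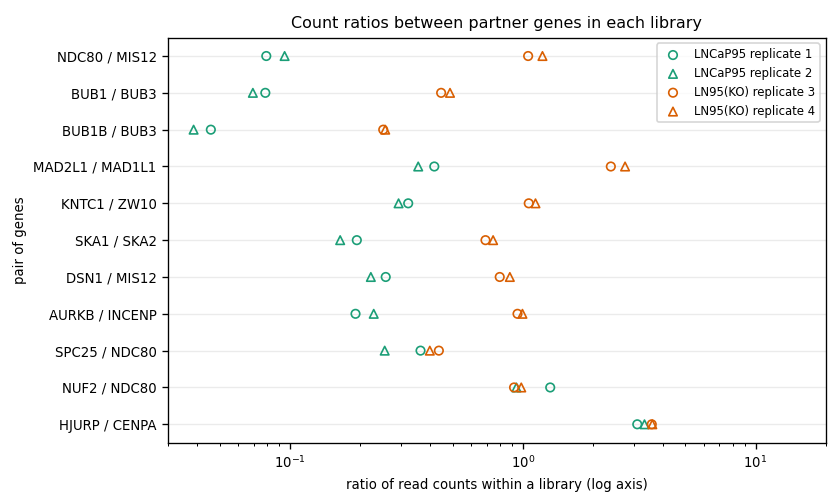
Ratio of read counts between 11 pairs of genes within each library, on a log axis, with green symbols for LNCaP95 and orange for LN95(KO). The 8 upper pairs separate the lines widely (NDC80 to MIS12 by 13.1-fold). The 3 lower pairs, from within the Ndc80 complex and the CENP-A deposition group, stay close, and of these only NUF2 to NDC80 overlaps between the lines.

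The cycle genes homology region (CHR), a short element bound by the DREAM and B-MYB complexes, and the CCAAT box bound by NF-Y are common in promoters of late cell cycle genes, so the letters of both were looked up. RefSeq promoter windows of GRCh38.p14, from 250 bases before to 50 after an annotated start, were on hand for 38 members (44 windows, of which 29 belonged to 26 cycle-regulated and 7 to 6 constitutive members). The CHR was searched as TTTGAA or TTCGAA on either strand. It was present in 20 of 29 cycle-regulated windows (69.0%), 2 of 8 windows of the members in neither class, 1 of 7 constitutive windows (ZW10) and 16.4% of all 35116 windows in the table. Within 100 bases of the start it was present in 19 of 29 cycle-regulated windows (65.5%), 0 of 7 constitutive windows and 7.37% of all windows. Among the members in neither class it was that near in 2 of 8 windows (25%), of CENPO, called higher, and CENPC, not called. CCAAT on either strand was in 21 of 29 cycle-regulated windows (72.4%), 4 of 7 constitutive windows and 34.6% of all windows. The E2F forms TTTGGCGC, TTTCCCGC, TTTCGCGC and TTTGCCGC were in 3 of 29, 2 of 7 and 3.31%. Windows of 1 gene overlap, and a match of letters is not evidence of binding. To show how alike the sites look across complexes, the cycle-regulated member with the largest change among those with a site within 100 bases of the start and its flanks inside the window is given for each of 8 complexes, read 5′ to 3′ on the strand stated, with the CHR letters in capitals.
SPC25 (Ndc80 complex, chr2:168890416-168890445, minus strand): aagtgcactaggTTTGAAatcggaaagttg
CENPA (CENP-A deposition, chr2:26786026-26786055, plus strand): cggagcgagcgaTTTGAAcgcgagcggcgc
SGO1 (shugoshins, chr3:20186192-20186221, minus strand): gaggcggaaaatTTCGAAtgtggcggcggt
BUB1 (spindle checkpoint, chr2:110678045-110678074, minus strand): ctgcgcggggtaTTCGAAtcggcggcggct
SKA3 (Ska complex, chr13:21176538-21176567, plus strand): tcccgccactagTTTGAAtctcggcgccgg
ZWINT (Knl1 module, chr10:56361273-56361302, plus strand): ccctaagattacTTTGAAgtcacagtcgac
CDCA8 (chromosomal passenger complex, chr1:37692481-37692510, plus strand): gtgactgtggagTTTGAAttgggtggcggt
CENPW (CCAN, chr6:126340120-126340149, plus strand): gttggcggcggaTTCGAAcgttcggactga

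The 150 bases upstream of the start are given for a contrast between the classes, with letters of the CHR, the CCAAT box and the E2F forms in capitals on either strand, so that a CCAAT box can read as ATTGG. CDCA8, borealin, was called higher, and its stretch held 1 CHR and 3 CCAAT matches, of which the CHR and the last ATTGG share a base.
CDCA8 (cycle-regulated, chr1:37692366-37692515, plus strand): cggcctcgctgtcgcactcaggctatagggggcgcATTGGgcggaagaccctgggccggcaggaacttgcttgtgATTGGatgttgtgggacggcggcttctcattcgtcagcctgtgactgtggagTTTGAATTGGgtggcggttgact
PMF1 and MIS12, constitutive members of the Mis12 complex, held CCAAT matches and no CHR letters in the stretches shown.
PMF1 (constitutive, chr1:156212857-156213006, plus strand): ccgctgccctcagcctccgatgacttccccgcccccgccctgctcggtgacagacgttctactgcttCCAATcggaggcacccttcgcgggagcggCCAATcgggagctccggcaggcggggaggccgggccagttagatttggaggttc
MIS12 (constitutive, chr17:5486224-5486373, plus strand): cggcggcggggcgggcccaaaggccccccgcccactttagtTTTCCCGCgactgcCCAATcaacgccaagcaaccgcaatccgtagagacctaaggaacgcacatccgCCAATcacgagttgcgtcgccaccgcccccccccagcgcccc
AURKB, the member with the largest change, had no CHR letters in its windows of the table.

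**Figure D4:**
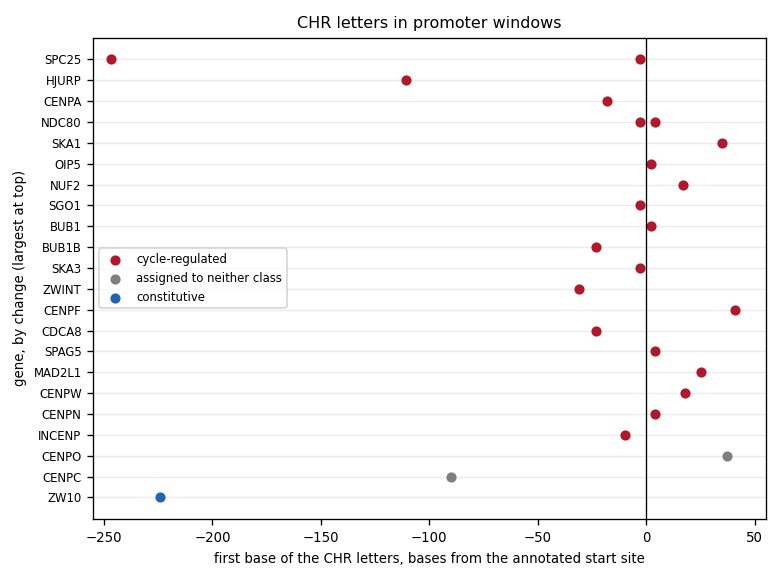
Position of the CHR letters in the promoter window listed first for each gene that has any, in bases from the annotated start site (0, vertical line), with genes ordered by their log2 fold change and coloured by class. Most cycle-regulated genes carry the letters within 100 bases of the start, and the constitutive gene shown, ZW10, carries them at -224.

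Of the genes that place CENP-A at the centromere, 3 of 4 were called higher. HJURP, the chaperone that delivers CENP-A to chromatin, had 90 and 110 counts in LNCaP95 against 1139 and 1275 in LN95(KO), which is 5.44 ± 0.799 against 67.1 ± 3.90 CPM (SD, n = 2) and a 12.3-fold rise (log2 3.62, SE 0.10, adjusted p = 4.96e-15, edgeR). CENPA, the histone variant itself, rose from 29 and 33 to 318 and 354 counts (log2 3.46, SE 0.15, adjusted p = 3.52e-12, edgeR). For both genes the LN95(KO) libraries lay far above the LNCaP95 libraries, with no overlap. MIS18A, which with OIP5 licenses the centromere for new CENP-A, had 277 and 225 counts against 374 and 484 (log2 0.80, SE 0.12, adjusted p = 1.78e-05, edgeR), higher in both libraries and not called for its fold of 1.75. OIP5 rose from 21 and 21 to 159 and 226 counts, but 92.5% of its exon bases lay under OIP5-AS1. The effect of that overlap on its counts was not tested. MIS18A and OIP5 thus had unequal changes.

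In the CCAN, 11 of 13 members were called higher, with a median log2 fold change of 2.13. CENPI, which with CENPH and CENPK forms 1 branch of the network, had the largest change, from 38 and 20 to 268 and 314 counts (log2 3.35, SE 0.19, adjusted p = 1.12e-10, edgeR). CENPH and CENPK followed at 2.40 and 2.46. The CENP-L and CENP-N pair, which reads CENP-A nucleosomes directly, rose by 2.06 and 2.19, and CENPM and CENPU by 2.20 and 2.13. With CENPW (2.29), 7 of the 13 members lay between 2.06 and 2.46, CENPI above them, and the genes of CENP-O, CENP-P, CENP-Q, CENP-C and CENP-T below.

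CENPO rose by 1.65 and CENPP by 1.46, although 31.6% and 43.2% of their exon bases lay under ADCY3 and IPPK. CENPQ, with 95 and 71 counts against 150 and 175, sat at the threshold (log2 1.00, fold 2.00), and its call was lost under 5 of 9 alternatives, without LNCaP95 replicate 2 (0.81) and LN95(KO) replicate 4 (0.91) among them. CENPC, which links CENP-A nucleosomes to the Mis12 complex, had 128 and 135 counts against 178 and 225 (log2 0.65, SE 0.14, adjusted p = 6.06e-04, edgeR) and was not called. CENPW, the histone-fold partner of CENPT, rose from 54 and 30 to 174 and 228 counts (log2 2.29), and its ratio to CENPT was 3.23 times as high in LN95(KO). Of 3 CCAN genes outside the set, CENPX (849 and 913 against 1145 and 1506, log2 0.62) and ITGB3BP, which encodes CENP-R (347 and 305 against 457 and 554, log2 0.66), stayed under the 2-fold criterion, and CENPS had 55 and 45 counts against 39 and 42 (log2 -0.27, adjusted p = 0.315, edgeR), with 65.0% of its exon bases shared with CENPS-CORT.

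The outer kinetochore was split by complex. All 4 subunits of the Ndc80 complex, the microtubule coupler, rose, with a narrow range of log2 fold changes from 3.18 to 3.84 and a summed level of 16.5 and 15.9 CPM against 147 and 185 CPM. SPC25 (GRCh37 chr2:169690642-169769881, minus strand) rose from 28 and 25 to 347 and 399 counts, 14.3-fold (log2 3.84, SE 0.16, adjusted p = 1.13e-12, edgeR). NDC80 (GRCh37 chr18:2571556-2616634, plus strand) rose from 77 and 98 to 796 and 1001 counts (log2 3.39, SE 0.13, adjusted p = 3.31e-13, edgeR). SPC24, the partner of SPC25 at the inner end of the complex, rose from 99 and 77 to 723 and 990 counts (log2 3.31, SE 0.16), and NUF2 from 101 and 92 to 730 and 986 (log2 3.18, SE 0.14). No library of 1 group came near the other for these subunits.

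Of the Mis12 complex only DSN1 was called, with 251 and 230 counts against 601 and 725 (log2 1.49, SE 0.10, adjusted p = 5.63e-10, edgeR), while its partners MIS12, NSL1 and PMF1 lay between -0.31 and 0.09. The summed level of the 4 Mis12 complex genes was 146 and 150 CPM in LNCaP95 and 155 and 174 CPM in LN95(KO). Relative to MIS12, DSN1 counts were 0.258 and 0.222 in LNCaP95 against 0.796 and 0.880 in LN95(KO). KNL1, the scaffold that receives BUB1 and BUB3, rose from 42 and 33 to 368 and 436 counts (log2 3.45, SE 0.15, adjusted p = 2.84e-12, edgeR), and ZWINT, which joins KNL1 to the RZZ complex, rose by 2.83. The 3 complexes that act as 1 unit at the kinetochore thus had medians of 3.35 (Ndc80), 3.14 (Knl1) and 0.07 (Mis12).

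Of CENPE, CENPF, SPAG5 and the Ska and RZZ members, whose proteins are added to the outer kinetochore in mitosis, all but ZW10 were called higher. CENPE, the kinesin that carries chromosomes towards the spindle equator, rose from 54 and 48 to 474 and 605 counts (log2 3.43, SE 0.14, adjusted p = 1.51e-12, edgeR). CENPF, a large corona protein, reached the second-highest mean CPM of the set in LN95(KO), 129 ± 7.67 against 18.5 ± 0.323 CPM in LNCaP95 (SD, n = 2), a log2 fold change of 2.81 with the smallest SE among the cycle-regulated members (0.07). Within the Ska complex, which tracks microtubule ends, SKA1 rose from 85 and 67 to 661 and 879 counts (log2 3.37, SE 0.15, adjusted p = 1.59e-10, edgeR) and SKA3 by 2.88, but SKA2 by 1.36, from 439 and 408 to 956 and 1179. SPAG5, or astrin, rose by 2.60. In the RZZ complex, which builds the corona, KNTC1 (the Rod subunit) rose from 215 and 206 to 855 and 991 counts (log2 2.16, SE 0.09, adjusted p = 1.13e-12, edgeR), and ZWILCH, the subunit outside the set, from 118 and 108 to 432 and 610 (log2 2.23), beside the 1.25-fold difference of ZW10.

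Of the 6 spindle checkpoint members, 4 were called higher. TTK, the MPS1 kinase at the top of the checkpoint, had 47 and 60 counts in LNCaP95 against 429 and 459 in LN95(KO) (log2 3.08, SE 0.13, adjusted p = 2.14e-12, edgeR). BUB1, a kinase that also marks centromeric chromatin for shugoshin, rose from 156 and 133 to 1025 and 1287 counts (log2 3.03, SE 0.11). BUB1B, or BUBR1, part of the mitotic checkpoint complex that holds back the anaphase-promoting complex, rose from 91 and 74 to 578 and 678 (log2 2.96, SE 0.12). MAD2L1, the protein that is converted at unattached kinetochores, rose from 190 and 161 to 767 and 1026 (log2 2.38, SE 0.13). The template on which that conversion takes place, MAD1L1, and the shared adaptor BUB3 were the 2 constitutive genes of this group described above. In LNCaP95 the level of BUB3 per kb was 13.8 CPM, against 2.09 for BUB1 and 1.22 for BUB1B, and in LN95(KO) it was 17.8, against 17.1 and 9.51.

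All 4 genes of the chromosomal passenger complex, which corrects faulty attachments, rose, over a range from 1.84 to 4.05 on the log2 scale. AURKB, its kinase (GRCh37 chr17:8108051-8113918, minus strand, 8 exon blocks), had 56 and 73 counts in LNCaP95 against 933 and 1155 in LN95(KO), which is 3.51 ± 0.673 against 58.0 ± 7.48 CPM (SD, n = 2) and a 16.5-fold rise (log2 4.05, SE 0.13, adjusted p = 3.33e-14, edgeR), the 113th of 15626 genes in order of upward change. BIRC5, or survivin, rose from 46 and 39 to 309 and 387 counts (log2 3.06, SE 0.16), and CDCA8 from 208 and 214 to 1215 and 1511 (log2 2.72, SE 0.10). INCENP, the scaffold that holds the other three, rose least, from 293 and 319 to 983 and 1159 (log2 1.84, SE 0.09), the smallest change of the cycle-regulated class. Per kb, the kinase stood below its scaffold in LNCaP95 (2.82 against 4.05 CPM) and above it in LN95(KO) (46.7 against 14.5 CPM). The shugoshins, which guard centromeric cohesion, rose as well, SGO1 from 21 and 26 to 178 and 210 counts (log2 3.07, SE 0.19, adjusted p = 2.98e-10, edgeR), with 15.8% of its exon bases under SGO1-AS1, and SGO2 by 2.30.

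Within the cycle-regulated class the members found in a published G2/M list for single cells (11 genes, among them AURKB, HJURP and NDC80) had a median log2 fold change of 3.18, against 2.72 for the 20 members in neither its G2/M nor its S-phase list. CENPU, the member in the S-phase list, stood at 2.13. The proliferation marker MKI67 had 171 and 166 counts in LNCaP95 against 1696 and 2087 in LN95(KO) (log2 3.52), and the ratio of MKI67 to NDC80 counts was 2.22 and 1.69 against 2.13 and 2.08, so that these groups overlapped. The summed cycle-regulated level was 22.6 and 23.1 times the MKI67 level in LNCaP95 and 13.5 and 13.2 times in LN95(KO), lower in both LN95(KO) libraries. That direction depends on the marker. The summed level was 6.71 times as high in LN95(KO), beside 11.5-fold for MKI67, 7.67-fold for TOP2A and 2.15-fold for PCNA. Relative to PCNA the summed level was thus higher in LN95(KO). How much of the members' rise is shared with proliferation as a whole was not tested.

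The members also differed together between the LN95(KO) libraries. Of the 47 members, 45 had a higher CPM in replicate 4 than in replicate 3, CENPT and CENPN being the exceptions, with a median log2 difference of 0.24 and a largest of 0.46. Over all genes tested, that median was 0.00 and 50.8% were higher in replicate 4, and 11.9% of genes differed by at least the members' median in that direction. Between the LNCaP95 libraries, 22 of 47 members were higher in replicate 2, with a median of -0.03. The difference between LN95(KO) libraries was small beside that between the lines, and the cycle-regulated median was 2.87 to 3.08 when any 1 library was left out, with 32 of 32 called each time.

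**Figure D5:**
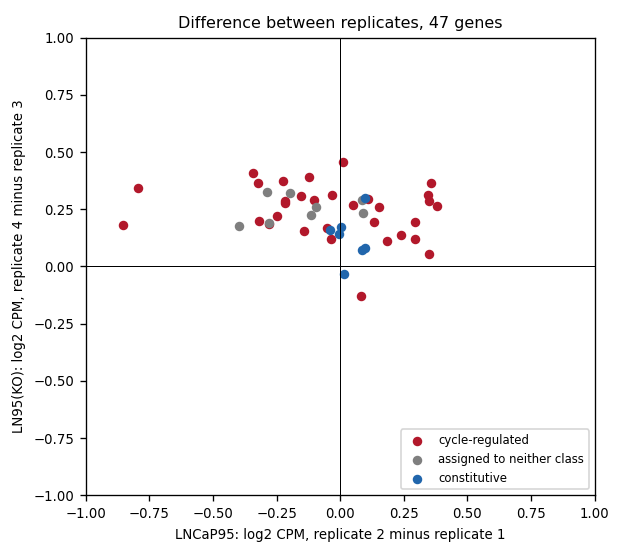
Difference in log2 CPM between the 2 libraries of each group for the 47 genes, LNCaP95 (replicate 2 minus 1) on the horizontal axis and LN95(KO) (replicate 4 minus 3) on the vertical axis, coloured by class. Points spread on both sides of 0 horizontally (22 of 47 above 0) and lie above 0 vertically for 45 of 47 genes.

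Genes that work beside the members had mixed changes. Of 25 other kinetochore and checkpoint genes, 24 were tested, 10 were called higher and 0 lower, with a median log2 fold change of 0.75. Among all genes tested, 8.86% were called higher and 9.13% lower. AURKC, the member of the Aurora family used mainly in germ cells, had 1 and 5 counts against 4 and 3 and was too low to test. PLK1, a mitotic kinase, had the largest change, from 244 and 224 to 1830 and 2512 counts (log2 3.24, SE 0.18, adjusted p = 4.53e-05, edgeR). The called genes also held the checkpoint target CDC20 (2.75), the microtubule depolymerase KIF2C (2.94), the checkpoint ATPase TRIP13 (2.02) and the astrin partner KNSTRN (1.92), whereas the centromere DNA-binding protein CENPB (0.01) was not called. Of 15 cohesin genes, 4 were called higher and 0 lower, with a median of 0.18, beside the same 8.86% and 9.13% of all genes. The called cohesin genes were regulators, of which separase (ESPL1) had the largest change, from 79 and 78 to 862 and 1115 counts (log2 3.68, SE 0.13, adjusted p = 1.04e-13, edgeR), with ESCO2 (3.34), sororin (CDCA5, 2.95) and securin (PTTG1, 2.72). Other regulators were not called, namely NIPBL (-0.27), MAU2 (-0.02), WAPL (0.30), PDS5A (-0.40), PDS5B (0.12) and ESCO1 (0.02). The core ring subunits SMC1A, SMC3 and RAD21 had log2 fold changes of 0.71, -0.12 and 0.09 and were not called.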

How the data were processed

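RNA-Seq libraries of LNCaP95 (n = 2) and LN95(KO) (n = 2) were used as deposited by the authors, as raw read counts per gene, not normalized, 1 file per library. Per the labels and the study's methods, reads were aligned to hg19 with HISAT2 2.1.0 and counted without regard to strand with HTSeq against GENCODE 29. A series-wide table of the same libraries was not used. The 5 summary lines of each file were left out of library sizes. Symbols and GRCh37 coordinates came from GENCODE 44 lifted to GRCh37, which matched 59859 of 60880 identifiers, and promoters from RefSeq (GRCh38.p14). No promoter was on hand for BIRC5, BUB3, CENPH, CENPL, CENPM, KNL1, KNTC1, MIS18A and TTK.

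Counts were tested with edgeR 4.0.16 in R 4.3.3 (TMM, filterByExpr with minimum counts of 10 and 15 in total, robust quasi-likelihood fit, Benjamini-Hochberg adjustment over 15626 genes). Genes were called at an adjusted p under 0.05 and a fold over 2. The SE is the log2 fold change over the square root of F. CPM values are TMM-scaled, and CPM per kb divides by the length of 1 annotated transcript. Replicates of a group differed beyond sampling noise (chi-square per degree of freedom 2.31 and 3.31). The script was tested on simulated data. Alternatives were DESeq2 1.42.0, other size factors, no filter, a test against the fold, no fold criterion, reassigned classes, no overlapping genes and leaving out each library. G2/M and S-phase lists came from Seurat 5.3.0. Depth limits apply to counting error only.

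The members, classes and lists were chosen with earlier results of these data known. Counts per library are given for the member of each complex with the largest change, constitutive members, members not called, and the Ndc80, Mis12, checkpoint and passenger subunits, and for the largest changes and missing subunits among other genes. Genes and promoters named beyond these were chosen after their values were seen. Some genes of the lists are not reported here.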

Additional observations from a re-analysis of the deposited data

Results flagged for a closer look

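The summary lines of the count files, which enter no comparison, held a larger share of entries not aligned in the LN95(KO) libraries, 8.05% in replicate 3 and 7.71% in replicate 4, than in the LNCaP95 libraries (3.85% and 3.96%). The entries themselves were not analysed here.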

How the results depend on the processing

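No paired analysis was possible because LNCaP95 and LN95(KO) have no replicate number in common. The number of members called higher was 38 in the edgeR test, 37 with DESeq2 and 36 in a test against the 2-fold limit, and all 32 cycle-regulated members were called under each of these and without any 1 library. Their median was 2.96 to 3.05 under other tools, factors or filters and 2.87 to 3.08 with a library left out, and 2.76 with the members of neither class counted in. With no fold criterion in the edgeR test, 43 members were called higher and 2 lower (MIS12 and MAD1L1), and 5 constitutive members were called. The calls were then 16 higher and 2 lower among the other kinetochore genes and 8 higher and 2 lower among the cohesin genes. Of all genes tested, 59.8% passed the adjusted p threshold at any fold, in either direction. DESeq2 put MAD1L1 at an adjusted p of 0.0504, over the threshold. The constitutive median was -0.014 to 0.24 with a library left out, 0.65 with the members of neither class counted in and 0.19 without members overlapping other genes. With a library left out, PMF1 ranged from -0.064 to 0.24 and NSL1 from -0.014 to 0.13, both below 0 without LN95(KO) replicate 4 and only then. Under 9 alternatives, 44 of 47 members kept direction and call, CENPQ, PMF1 and NSL1 being the exceptions. The 9 were DESeq2, other size factors, no filter and each library left out, without the test against the 2-fold limit. The scaling moved the median of all genes tested from -0.05 to 0.05. Changes under 0.1 on the log2 scale are therefore not read as a direction. In 8 members both LNCaP95 libraries held under 50 counts, which limits the precision of their fold changes.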
